A study of Mus musculus with 19 samples.

Results

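Bone morphogenetic proteins (BMPs) are secreted ligands of the TGF-beta superfamily. They bind paired type I and type II receptor kinases, which phosphorylate SMAD1, SMAD5 and SMAD9 and so switch on target genes such as those of the Id family, while secreted antagonists such as gremlin hold the ligands back. In the vessel wall the pathway is known for its part in endothelial and smooth muscle identity and in calcification, and loss of BMPR2 causes heritable pulmonary arterial hypertension.

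The genes described here are 9 of this pathway, chosen by name from 30142 genes measured: the ligands Bmp2, Bmp4 and Bmp6, the receptors Bmpr1a and Bmpr2, the antagonist Grem1, and the response genes Id1, Id3 and Smad6. Each was read by 1 probe set, and no probe set with several gene symbols named any of them. The study measured the infrarenal aorta of C57BL/6J mice, an inbred strain, with 1 mouse per array. The mice were operated on at 10 weeks of age. In all 4 groups the aorta was clamped or tied, opened and infused for 5 min at 120 mmHg, so the controls carry the operation too. The male sham group (5 mice) and the female sham group (3 mice) received saline. The male PPE group (7 mice) and the female PPE group (4 mice) received porcine pancreatic elastase at 2.5 U/mL, which digests elastin and is used to induce an abdominal aortic aneurysm. Tissue was taken 7 days later, and no aorta without an operation was analysed here.

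All values are log2 intensities as deposited, where 1 unit is a 2-fold step. Array medians lay between 5.61 and 5.85 in the 12 male arrays and between 6.17 and 6.31 in the 7 female arrays. The labels name no batch, and whether the sexes were run as separate sets is not stated in the sources used here. Sex and a possible array set thus cannot be told apart, and levels are compared only within a sex. The number of arrays limits the precision. Smooth muscle markers were bright in sham aortae and fell with PPE in 8 of 8 genes in males and 7 of 8 in females. Their mean went from 13.39 to 14.50 in male sham to 11.18 to 12.53 in male PPE, and from 13.75 to 14.26 to 12.32 to 13.09 in females. Leukocyte markers rose in 6 of 7 genes in males (mean 9.72 to 10.94 in sham, 11.56 to 12.51 in PPE) and in 2 of 7 in females by limma (11.18 to 11.58, then 12.13 to 12.86). At an unadjusted p below 0.05, 5 of the 7 were higher in females. Endothelial markers fell in 5 of 8 genes in males (mean 11.02 to 11.13 in sham, 10.40 to 10.81 in PPE) and in 0 of 8 in females by limma (4 at an unadjusted p below 0.05; mean 11.33 to 11.73, then 11.16 to 11.43). Fibroblast markers fell in 3 of 5 genes in males and 2 of 5 in females by limma (4 in females at an unadjusted p below 0.05). No adipocyte gene of 5 was called by limma in either sex (1 in males and 0 in females at an unadjusted p below 0.05), but the adipocyte mean was 11.44 in male sham 4 while it spanned 7.35 to 8.63 in the remaining male sham aortae. Of 3 genes listed for lymph node or gut, 1 was lower in males, the muscle gene Des (mean 8.93 in sham, 8.07 in PPE). In females 0 of these were called by limma (1 higher and 1 lower at an unadjusted p below 0.05). For nerve, 0 of 2 genes were called in either sex (0 also at an unadjusted p below 0.05). In whole tissue, fewer cells of a type and less RNA per cell cannot be told apart, and the part that these cell markers have in the results below was not tested.

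In males, PPE was followed by lower Bmp6, Bmpr1a, Bmp2, Id3 and Smad6 and by higher Grem1. Of the 9 genes, 5 fell, 1 rose and 3 did not pass (limma, Benjamini-Hochberg adjusted p below 0.05), while 19.7% of all genes were called, 9.98% lower and 9.67% higher. At an unadjusted p below 0.05 the count was also 6 of 9, beside 29.4% of all genes. Without male sham 5 or without male PPE 5 it was 3 genes. In females Bmp6 fell, 8 genes did not pass and none was called higher (limma; 1 at an unadjusted p below 0.05), while 4.22% of all genes were called, 1.45% lower and 2.77% higher. At an unadjusted p below 0.05 it was 4 of 9, beside 14.7% of all genes. Bmp6 was thus the 1 gene of the 9 called in both sexes in the same direction, as 3.76% of all genes were. Sham and PPE did not overlap for 2 of the 9 genes in males, both lower, where 9.37% of all genes did not (4.69% with all PPE arrays above). In females this was so for 4 of the 9, beside 19.8% of all genes. The median change over the 9 genes was −0.38 in males and −0.13 in females, beside 0.01 and −0.02 over all genes. In each sex 7 of the 9 values were below 0, as were 48.5% and 55.5% of all genes.

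**Figure D1:**
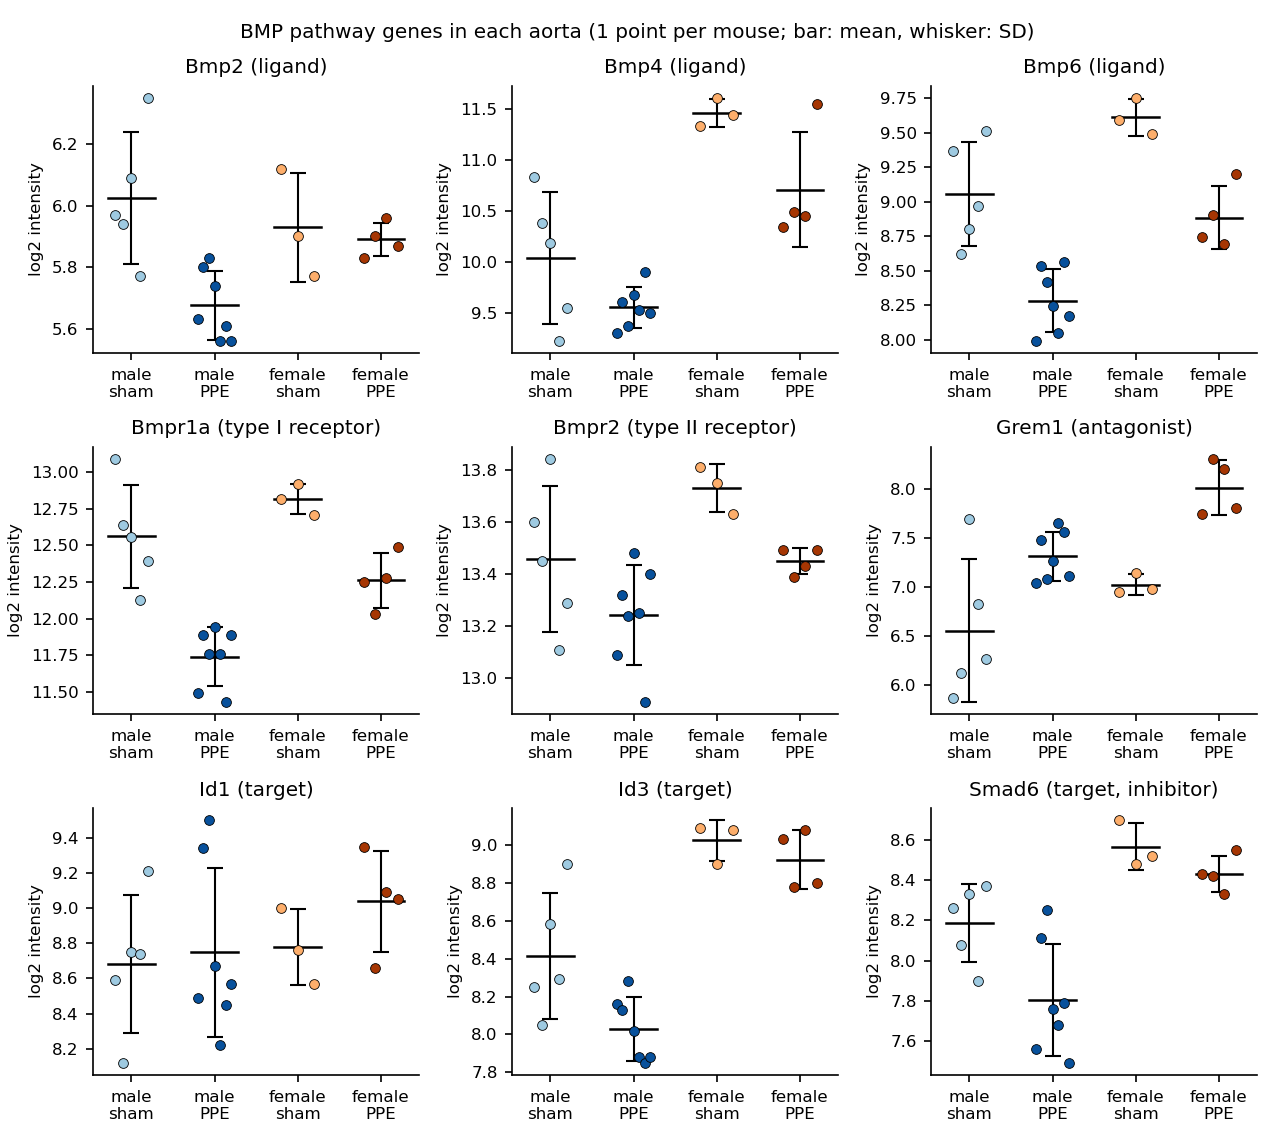
Log2 intensity (vertical axis, a separate range for each gene) of the 9 BMP pathway genes in each of the 19 aortae by group, with 1 point per mouse, the group mean as a bar and the SD as a whisker. For Bmp6 and Bmpr1a the PPE points lie below the sham points in both sexes, while for Id1 the groups overlap.

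The promoter stretches of genes that moved in opposite directions, or that are classical BMP targets, are shown to let the regulatory sequence be read beside the values. They are the 250 bases before an annotated start from RefSeq (GRCm38.p6), 5′ to 3′ on the strand of the gene, with matches in capitals to GGCGCC, a GC-rich element bound by BMP-activated SMADs, or CAGAC, the SMAD box, both searched on both strands. Bmp6 fell in both sexes, and its stretch is chr13:38345466-38345715 on the plus strand. Bmpr1a fell in males, and its stretch is chr14:34502547-34502796 on the minus strand, before a start inside the span of the gene given further on. Grem1 rose in males, and its stretch is chr2:113758649-113758898 on the minus strand. Id3, like Smad6 a BMP target called lower in males, is given at chr4:136143572-136143821 on the plus strand.
Bmp6: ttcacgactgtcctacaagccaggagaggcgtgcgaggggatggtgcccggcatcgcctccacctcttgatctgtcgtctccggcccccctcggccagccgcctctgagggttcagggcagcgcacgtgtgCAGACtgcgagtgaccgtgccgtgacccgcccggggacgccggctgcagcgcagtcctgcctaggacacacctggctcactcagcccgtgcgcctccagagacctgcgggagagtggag
Bmpr1a: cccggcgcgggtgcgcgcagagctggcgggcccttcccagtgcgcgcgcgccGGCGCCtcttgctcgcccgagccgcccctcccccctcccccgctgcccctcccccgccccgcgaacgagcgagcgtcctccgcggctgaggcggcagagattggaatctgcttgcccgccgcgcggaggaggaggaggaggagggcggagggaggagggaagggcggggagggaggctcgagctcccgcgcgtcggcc
Grem1: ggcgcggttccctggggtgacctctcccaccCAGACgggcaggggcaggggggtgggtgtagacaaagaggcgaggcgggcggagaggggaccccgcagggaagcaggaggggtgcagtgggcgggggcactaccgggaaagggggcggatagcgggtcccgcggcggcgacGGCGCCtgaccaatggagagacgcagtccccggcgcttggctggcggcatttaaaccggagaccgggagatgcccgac
Id3: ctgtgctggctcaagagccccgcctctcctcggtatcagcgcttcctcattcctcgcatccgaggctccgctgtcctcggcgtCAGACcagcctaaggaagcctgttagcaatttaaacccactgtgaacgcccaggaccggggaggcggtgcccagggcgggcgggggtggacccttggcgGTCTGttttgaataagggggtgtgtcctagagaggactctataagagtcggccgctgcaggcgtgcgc
GGCGCC occurred 198 bases before the start of Bmpr1a, 78 before that of Grem1 and 105 before that of Bmpr2 (stretch not shown). CAGAC occurred 119 bases before the start of Bmp6, 219 before that of Grem1, and 167 and 68 before that of Id3. The windows of Smad6 and Bmp4 (not shown) held neither motif. No match overlapped another. Of 32851 windows of this length 9.59% held GGCGCC and 42.2% held CAGAC. Of the 9 genes 7 matched an entry of the promoter table, and these 7 windows had a GC content of 62.8% to 78.8%, against a median of 52.4% over all windows. A match of letters is a description and shows neither binding nor a cause.

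Among the ligands, Bmp6, known as an inducer of hepcidin and a product of vascular and other cells (chromosome 13: 38345716 to 38500314, mm10), fell in both sexes. Male sham 1 to 5 read 9.37, 8.62, 8.80, 8.97 and 9.51, and the 7 male PPE arrays had a lowest value of 7.99, a median of 8.24 and a highest of 8.56. Female sham 1 to 3 read 9.59, 9.75 and 9.49, and female PPE 1 to 4 read 8.74, 8.90, 8.69 and 9.20. Every PPE aorta thus lay below every sham aorta of its sex, which held for 4.68% of all genes in males and 8.86% in females. The difference in males was −0.77 ± 0.15 (SE, n = 5 and 7, 1.71-fold lower, adjusted p = 0.00093). It was −0.73 ± 0.19 in females (n = 3 and 4, 1.66-fold lower, adjusted p = 0.0406). The male call held in every fit that left out 1 array and under each alternative, with adjusted p from 0.000333 to 0.0296. The female call was lost without any 1 of the 3 sham arrays, without PPE 1, 2 or 3, and without male PPE 4 or 7, and across the alternatives its adjusted p ranged from 0.0062 to 0.185, with the loss also after median centring.

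Bmp4, a ligand made by endothelium exposed to disturbed flow, was bright and uneven (chromosome 14: 46383525 to 46390669). Male sham 1 to 5 read 10.84, 10.39, 10.19, 9.23 and 9.55, and male PPE ran from 9.31 through a median of 9.53 to 9.91. Female sham read 11.34, 11.61 and 11.44, and female PPE read 10.35, 10.49, 10.45 and 11.55. In males the 3 first sham arrays were above all PPE arrays, while sham 4 was below all of them and sham 5 lay among them. In females PPE 4 sat among the sham arrays and the other PPE arrays lay below them. The differences were −0.48 ± 0.24 in males (95% interval −0.99 to 0.03, adjusted p = 0.196) and −0.75 ± 0.31 in females (−1.41 to −0.09, adjusted p = 0.244), so neither passed. Without male sham 4, the array with high adipocyte markers, the male difference was −0.68 (adjusted p = 0.0436). It also passed with array weights (−0.76, adjusted p = 0.0266) and without male sham 4, male sham 5 and male PPE 1 together (−0.87, adjusted p = 0.0107). Those arrays had the highest medians of the male arrays (5.83, 5.78 and 5.85). Male sham 4 and 5 also held the lowest male sham values of Bmp4, so leaving them out favours a lower call. Female PPE 4 had a smooth muscle marker mean of 13.09, against 12.32 to 12.46 in the other female PPE arrays. Its adipocyte marker mean was 10.94, against 8.44 to 10.32 in those arrays. Without female PPE 4 the female difference was −1.03 (adjusted p = 0.048). With both arrays left out, a choice made after the values were seen, Bmp4 was lower in males (adjusted p = 0.0112) and in females (adjusted p = 0.012). The same fit called 7 of the 9 genes in males and 3 in females, these being Bmp4, Bmp6 and Bmpr1a.

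Bmp2, a ligand known for bone formation and vascular calcification, was the dimmest of the 9 genes (chromosome 2: 133552159 to 133562896). Its mean stood at percentile 41.2 of all genes, and the files give no detection calls. Male sham 1 to 5 read 5.97, 5.94, 6.09, 5.77 and 6.35, and male PPE ran from 5.56 through a median of 5.63 to 5.83. Female sham read 6.12, 5.90 and 5.77, and female PPE read 5.83, 5.90, 5.96 and 5.87. The male groups overlapped only at sham 4, whereas the female groups overlapped fully. In males the difference was −0.35 ± 0.09 (1.27-fold lower, adjusted p = 0.00823), a call that was lost after quantile normalization (adjusted p = 0.0656) and after centring each array on its median (adjusted p = 0.0595). In females it was −0.04 ± 0.12 (95% interval −0.28 to 0.20, adjusted p = 0.936).

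Of the receptors, Bmpr1a showed the larger change. It encodes the type I receptor ALK3, which binds BMP2 and BMP4 (chromosome 14: 34411061 to 34503336). Male sham 1 to 5 read 13.09, 12.64, 12.56, 12.13 and 12.39, and male PPE ran from 11.43 through a median of 11.76 to 11.94. Female sham read 12.82, 12.92 and 12.71, and female PPE read 12.25, 12.03, 12.28 and 12.49. The groups did not overlap in either sex, with PPE below sham as for 4.68% of all genes in males and 8.86% in females. In males Bmpr1a fell by 0.82 ± 0.14 on the log2 scale (1.77-fold lower, adjusted p = 0.000216), and the call held under every alternative. In females the value was −0.55 ± 0.18 (95% interval −0.92 to −0.18), which did not pass (adjusted p = 0.0942). It passed after quantile normalization, with array weights, with only the female arrays in the fit, and without male sham 1, without male sham 4, without male sham 4 and female PPE 4, and when male sham 4, male sham 5 and male PPE 1 were left out together, a setting called the 3-array omission from here on. In those fits adjusted p lay between 0.011 and 0.0491.

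Bmpr2, the type II receptor that pairs with it, was the brightest of the 9 genes (chromosome 1: 59764279 to 59878081). Male sham 1 to 5 read 13.60, 13.45, 13.84, 13.11 and 13.29, and male PPE ran from 12.91 through a median of 13.25 to 13.48. Female sham read 13.81, 13.75 and 13.63, and female PPE read 13.49, 13.39, 13.43 and 13.49. The female groups did not overlap, with PPE below sham as for 8.86% of all genes, but the male groups did. The difference was −0.22 ± 0.11 in males (95% interval −0.45 to 0.02, adjusted p = 0.206) and −0.28 ± 0.14 in females (−0.58 to 0.02, adjusted p = 0.399). Neither passed, and in males it did under the 3-array omission (adjusted p = 0.0274). That setting leaves out the lowest male sham values, 13.11 and 13.29, which favours a lower call.

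Grem1, which encodes gremlin 1, a secreted protein that binds BMP2 and BMP4 and keeps them from their receptors, was the 1 gene of the 9 called higher (chromosome 2: 113748675 to 113758648). Male sham 1 to 5 read 5.87, 6.12, 7.70, 6.83 and 6.27, and male PPE ran from 7.04 through a median of 7.27 to 7.66. Female sham read 6.95, 7.15 and 6.98, and female PPE read 7.75, 8.31, 8.21 and 7.81. In males sham 3 was above all PPE arrays and the other 4 sham arrays were below all of them. In females every PPE aorta was above every sham aorta, as for 11.0% of all genes. The male rise was 0.76 ± 0.23 (1.69-fold, adjusted p = 0.0283). This call was lost without male sham 1, 2 or 5, without male PPE 5 or 6, with only the male arrays in the fit and under the 3-array omission, where adjusted p lay between 0.0543 and 0.0988. Without male sham 3 the male call held and the difference was 1.04. That array had the highest male sham value, so leaving it out favours a higher call. The female difference was 0.99 ± 0.31 (1.99-fold, 95% interval 0.35 to 1.64), which did not pass (adjusted p = 0.0824). With only the female arrays in the fit it passed (adjusted p = 0.012), as it did with array weights (adjusted p = 0.0213) and without male sham 3 (adjusted p = 0.011), which enters the female test through the shared variance.

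**Figure D2:**
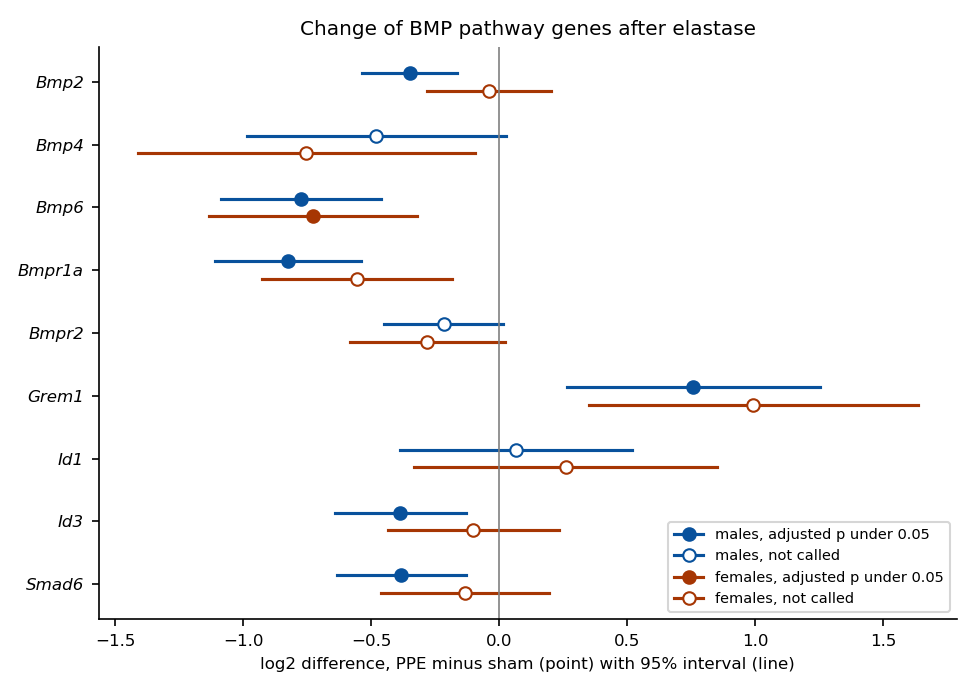
Log2 difference of PPE minus sham (horizontal axis) for the 9 genes in males (blue) and females (brown), with the 95% interval as a line; filled points had a limma adjusted p below 0.05. Bmp6 is filled in both sexes, Grem1 lies on the positive side in both, and Id1 has intervals that span 0.

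Of the 3 response genes, Id3 and Smad6 fell in males and Id1 did not pass in either sex. Id1 and Id3 encode inhibitors of basic helix-loop-helix factors and are induced directly by BMP receptors, and Smad6 encodes an inhibitory SMAD that is induced by the pathway and feeds back on it. Id1 (chromosome 2: 152736251 to 152737410) read 8.59, 8.12, 8.75, 8.74 and 9.21 in male sham 1 to 5 and from 8.22 through a median of 8.57 to 9.50 in male PPE. Female sham read 9.00, 8.76 and 8.57, and female PPE read 9.35, 8.66, 9.09 and 9.05. The groups overlapped in both sexes, and male PPE 2 and 3, at 9.34 and 9.50, were above all other male arrays. The difference was 0.07 ± 0.22 in males (95% interval −0.39 to 0.52, adjusted p = 0.891) and 0.26 ± 0.28 in females (−0.33 to 0.85, adjusted p = 0.793). These intervals do not show that Id1 was level.

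Id3 (chromosome 4: 136143822 to 136145392) read 8.25, 8.05, 8.58, 8.29 and 8.90 in male sham 1 to 5 and from 7.85 through a median of 8.02 to 8.28 in male PPE. Female sham read 9.09, 8.90 and 9.08, and female PPE read 9.03, 8.78, 9.08 and 8.80, so PPE 1 and 3 lay among the sham arrays and PPE 2 and 4 below them. The male groups overlapped at sham 1 and 2. Id3 fell by 0.39 ± 0.12 on the log2 scale in males (1.31-fold lower, adjusted p = 0.0324) and stood at −0.10 ± 0.16 in females (95% interval −0.44 to 0.23, adjusted p = 0.870). The male call was lost after quantile normalization (adjusted p = 0.0803), after median centring (adjusted p = 0.0657), with array weights, with only the male arrays, under the 3-array omission, and without male sham 3 or 5 or male PPE 4, 5, 6 or 7.

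Smad6 (chromosome 9: 63953076 to 64022085) read 8.26, 8.08, 8.33, 7.90 and 8.37 in male sham 1 to 5 and from 7.49 through a median of 7.76 to 8.25 in male PPE. Female sham read 8.70, 8.48 and 8.52, and female PPE read 8.43, 8.42, 8.33 and 8.55. Male PPE 2 and 3, high for Id1, were again the highest PPE arrays and lay among the sham arrays. Smad6 fell by 0.38 ± 0.12 on the log2 scale in males (1.30-fold lower, adjusted p = 0.0308) and stood at −0.13 ± 0.16 in females (95% interval −0.46 to 0.19, adjusted p = 0.814). Its male call was lost after quantile normalization (adjusted p = 0.0594), after median centring (adjusted p = 0.122), with only the male arrays, under the 3-array omission, and without male sham 1, 3 or 5 or male PPE 1, 4, 5 or 7.

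None of the 9 genes was called by limma for a difference between the sexes in the response to PPE (1 at an unadjusted p below 0.05, Bmp2). Over all genes 0.541% were called, 0.501% with the lower value in males and 0.0398% with the higher, and 9.95% had an unadjusted p below 0.05. The male response minus the female response ran from −0.31 for Bmp2 (95% interval −0.61 to −0.003, adjusted p = 0.495) to 0.27 for Bmp4 (−0.56 to 1.10, adjusted p = 0.861). For Bmp6 it was −0.05 (−0.56 to 0.47) and for Grem1 −0.23 (−1.05 to 0.58). The calls made in males and missed in females are therefore not shown to differ between the sexes.

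**Figure D3:**
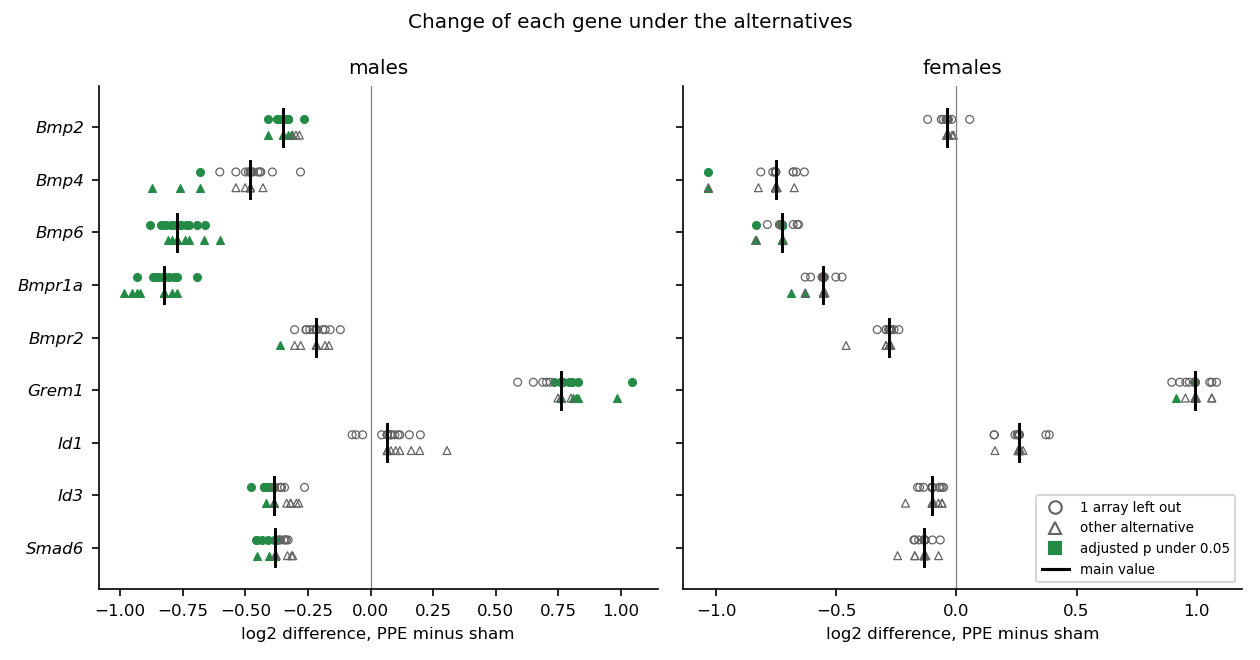
Log2 difference of PPE minus sham (horizontal axis) for each gene in males and females when 1 array is left out (circles) or another processing alternative is used (triangles), with the reported value as a black line; green symbols had a limma adjusted p below 0.05. In males all symbols of Bmp6 and Bmpr1a are green, while those of Id3, Smad6 and Grem1 are mixed.

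The other genes of the pathway are counted by list. Of 56 measured genes, 14 fell and none rose in males (limma; at an unadjusted p below 0.05, 18 were lower and 3 higher), with a median of −0.14, beside 9.98% of all genes called lower and 9.67% higher. In females 1 fell and none rose (limma; 9 lower and 1 higher at an unadjusted p below 0.05), with a median of −0.10, beside 1.45% of all genes called lower, a share near that of the list. Genes were called higher in some fits: Fst and Bmper in males and Bmper in females without male sham 3, and Fst in males without male PPE 1. After quantile normalization 12 genes fell in males, and after median centring 9. Of the 14, 7 kept the call under every setting in which they were tested: Smad9, Smurf2, Ski, Fstl3, Twsg1, Sost and Vwc2. Among these, Smad9 (mean 5.64 in male sham) and Vwc2 (6.81) were dim and were not tested where dim genes were left out.

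Secreted antagonists and modulators held the largest changes, with 6 of 17 lower in males and 1 of 17 in females, beside 9.98% and 1.45% of all genes. Sost, which encodes sclerostin, a secreted antagonist known mainly for WNT inhibition, read 9.63, 8.45, 7.94, 7.43 and 8.91 in male sham 1 to 5 and from 5.33 to 6.87 in male PPE. It fell by 2.39 ± 0.33 on the log2 scale (5.23-fold lower, adjusted p = 4.1e-05). In females it read 7.35, 8.61 and 7.90 in sham and 6.38, 6.66, 6.62 and 6.84 in PPE, without overlap, at −1.33 ± 0.43 (adjusted p = 0.102). Sost thus separated the groups in both sexes and passed in males, while in females it passed with only the female arrays in the fit, and the difference between the sexes was not called (adjusted p = 0.542). All PPE arrays lay below all sham arrays for 4.68% of all genes in males and 8.86% in females.

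Vwc2, a dim gene that encodes the secreted BMP antagonist brorin, was called lower in both sexes. It fell by 1.11 ± 0.10 on the log2 scale in males (adjusted p = 1.22e-06) and by 0.52 ± 0.13 in females (adjusted p = 0.0367), where the call was lost after median centring and without any 1 of the 3 sham arrays or of PPE 1 to 3. Twsg1, which encodes twisted gastrulation, a BMP-binding partner of chordin, fell by 1.03 ± 0.17 in males (adjusted p = 0.000268) and stood at −0.74 ± 0.22 in females (adjusted p = 0.0762). In females it passed after quantile normalization, with dim genes left out and with only the female arrays in the fit. It also passed there without male sham 1 or male sham 4, without male sham 4 and female PPE 4, and under the 3-array omission. Fstl3, which encodes a follistatin-like binder of activins, fell by 0.75 in males (adjusted p = 0.0017) and stood at −0.58 in females (adjusted p = 0.135). In females Fstl3 passed after quantile normalization, under the 3-array omission, and without male sham 4 and female PPE 4. With array weights Sost, Twsg1, Fstl3, Acvrl1 and Smurf2 were also called lower in females. Acvrl1 and Smurf2 were so too under the 3-array omission, and Smurf2 with only the female arrays in the fit. Smaller male falls were those of Nbl1, a relative of gremlin (−0.54, adjusted p = 0.0313), and Crim1, a transmembrane BMP binder (−0.37, adjusted p = 0.0202), and both lost the call after median centring and under the 3-array omission. Without male sham 5 both were lost too, and Nbl1 also without male sham 3 or without male PPE 2, 5, 6 or 7. Crim1 was also lost with array weights, and Nbl1 with only the male arrays in the fit. Noggin (Nog) stood at 0.05 in males and −0.18 in females without a call, but it was dim (mean 4.80 in male sham and 5.32 in female sham). The highest female value on this list was that of Bmper, an extracellular BMP modulator of endothelium, at 0.60 (adjusted p = 0.130) and 0.36 in males (adjusted p = 0.133), named after its values were seen. Bmper was called higher in females with array weights and with only the female arrays in the fit, and in both sexes without male sham 3.

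Of the other receptors and co-receptors 3 of 9 fell in males and 0 in females (limma; 2 lower at an unadjusted p below 0.05), beside 9.98% and 1.45% of all genes. They were Acvrl1, which encodes the endothelial type I receptor ALK1 (−0.34, adjusted p = 0.00806), and the co-receptor genes Rgma (−0.36, adjusted p = 0.0181) and Rgmb (−0.34, adjusted p = 0.011). Acvrl1 and Rgmb lost the call after median centring and Rgma after quantile normalization and without male sham 5. Bmpr1b stood at −0.31 in males (adjusted p = 0.0518) and Acvr1 at −0.23 (adjusted p = 0.181). Of SMADs and intracellular regulators 3 of 10 fell in males and 0 in females (limma; 2 lower at an unadjusted p below 0.05), beside 9.98% and 1.45% of all genes. These were the receptor-activated Smad9 (−0.38, adjusted p = 0.000383), the ubiquitin ligase gene Smurf2 (−0.36, adjusted p = 0.0027) and the SMAD co-repressor gene Ski (−0.43, adjusted p = 0.00175). Smad1 stood at −0.19 and Smad4 at −0.01 in males.

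None of the 11 other BMP ligands was called in either sex (in males 1 lower and 1 higher at an unadjusted p below 0.05, in females 0), with male values from −0.33 to 0.16, among them Bmp3 at −0.11 and Bmp5 at −0.004. Most of these ligands were dim. Bmp15, Bmp8a, Bmp10, Bmp8b and Bmp7 had male sham means of 4.11, 4.20, 4.33, 4.34 and 4.73. The lower quartile of genes in the male sham arrays was 4.77 to 5.01. For such genes a missing call does not show that expression was level. Of 9 other target genes 2 fell in males and 0 in females (limma; 0 at an unadjusted p below 0.05), beside 9.98% and 1.45% of all genes. Id4, another inhibitor of basic helix-loop-helix factors, fell by 0.82 ± 0.18 in males (adjusted p = 0.0029) and stood at −0.11 in females (adjusted p = 0.909). In males all PPE arrays lay below all sham arrays for Id4, as for 4.68% of all genes. Hey1, shared with Notch signalling, stood at −0.40 in males (adjusted p = 0.0367), a call lost under both other scalings and without any 1 of the 5 male sham arrays or of male PPE 2, 5, 6 and 7. Id2 stood at 0.27 in males and 0.23 in females without a call.

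**Figure D4:**
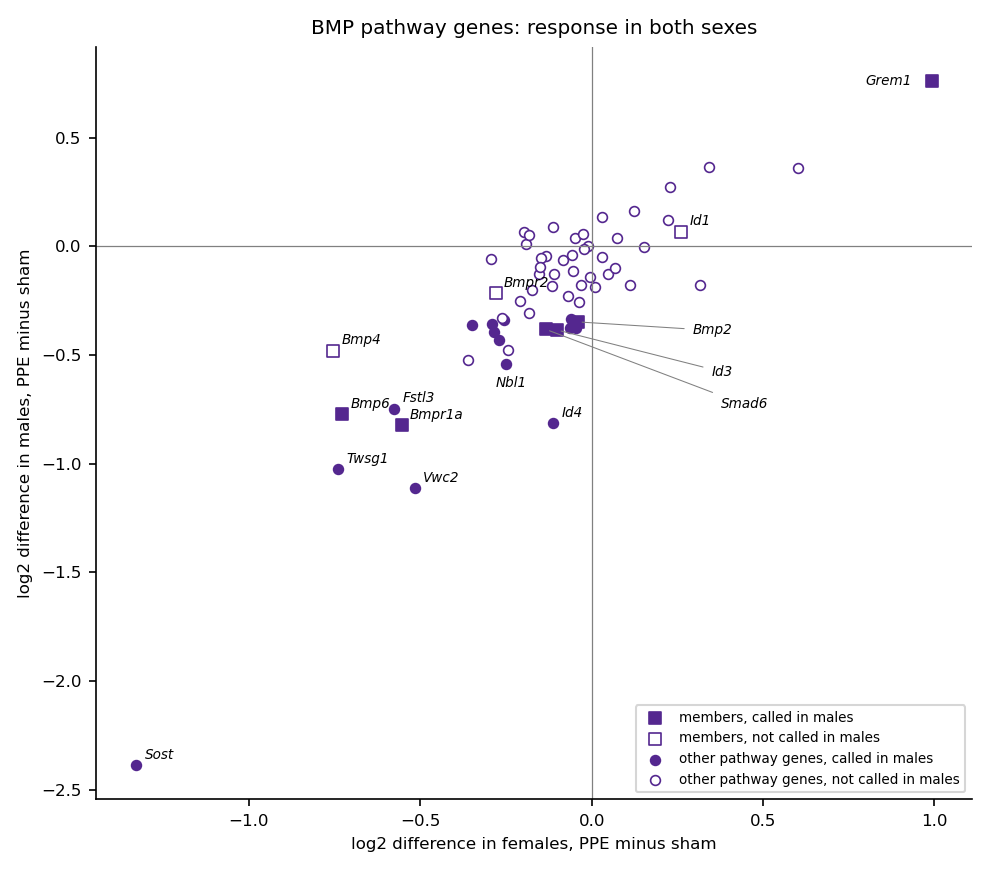
Log2 difference of PPE minus sham in females (horizontal axis) and males (vertical axis) for the 9 genes (squares) and 56 other BMP pathway genes (circles), filled where the limma adjusted p in males was below 0.05; genes of the 9 and filled genes beyond 0.45 in males are named. Sost lies lowest at −2.39 in males, Grem1 lies highest, and most genes lie near 0.

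Between mice of 1 group, Id1 varied with Id3, Smad6 and Bmp2. Values were taken as deviations from the group mean over the 19 arrays, and 6 relations with Id1 were tested by permutation within groups (100000 resamples, two-sided). Id1 went with Id3 (r = 0.75, permutation p = 0.00048, adjusted p = 0.00288; rho = 0.75, p = 0.00098, adjusted p = 0.00588), with r = 0.78 in the 12 male arrays, 0.56 in the 7 female arrays and 0.65 without the 2 arrays farthest out in Id3. It went with Smad6 (r = 0.71, permutation p = 0.00771, adjusted p = 0.0154; rho = 0.66, p = 0.00733, adjusted p = 0.0159), with 0.76 in males, 0.31 in females and 0.47 without male PPE 2 and 3, on which it rested in part. It also went with Bmp2 (r = 0.64, permutation p = 0.00544, adjusted p = 0.0154; rho = 0.63, p = 0.00794, adjusted p = 0.0159), with 0.71 in males, 0.37 in females and 0.71 without male sham 4 and 5. Relations of Id1 did not pass with Bmp4 (r = −0.29, permutation p = 0.252, adjusted p = 0.377; rho = −0.34, p = 0.185, adjusted p = 0.278), Grem1 (r = −0.07, permutation p = 0.813, adjusted p = 0.813; rho = −0.10, p = 0.711, adjusted p = 0.711) or Bmpr2 (r = 0.10, permutation p = 0.731, adjusted p = 0.813; rho = 0.22, p = 0.431, adjusted p = 0.518). For these 3, r in males and females was −0.35 and −0.10, 0.01 and −0.66, and 0.04 and 0.81, and without the 2 farthest arrays −0.38, −0.21 and 0.13. Genes outside the pathway reached such values too. Taken the same way, Id1 gave r = 0.86 with Cnnm4, 0.81 with Hmgxb3 and 0.80 with Vps9d1, which were picked as the genes most like it. The share of all genes at such r was not computed, so the relations are not shown to be particular to the pathway.

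Bmp6 also varied with the smooth muscle marker mean between mice of 1 group (r = 0.77, permutation p = 0.00068, adjusted p = 0.00544 over 8 relations chosen after the values were seen; rho = 0.79, p = 0.00024, adjusted p = 0.00192). The value was 0.74 in males, 0.86 in females and 0.72 without male sham 3 and male PPE 1. Aortae with higher smooth muscle markers than others of their group thus had higher Bmp6. For Bmp4 the same relation did not pass (r = 0.41, permutation p = 0.102, adjusted p = 0.406; rho = 0.40, p = 0.103, adjusted p = 0.411), with 0.24 in males, 0.94 in females and 0.50 without those arrays. For Bmpr1a it did not pass either (r = 0.28, permutation p = 0.310, adjusted p = 0.621; rho = 0.32, p = 0.233, adjusted p = 0.467), with 0.22 in males, 0.62 in females and 0.22 without those arrays.

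**Figure D5:**
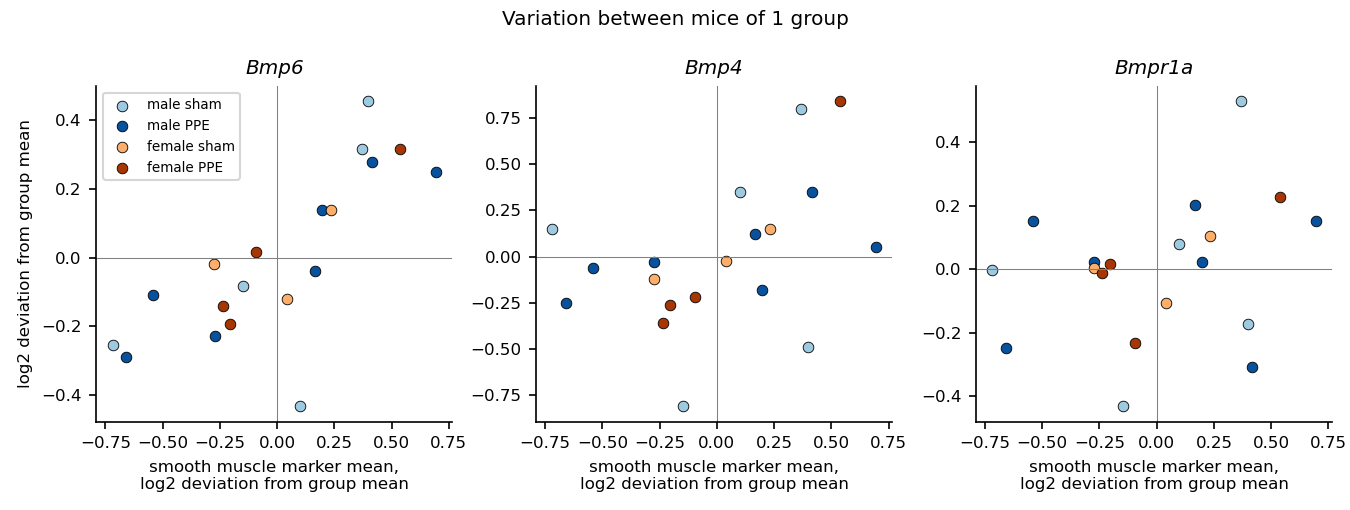
Deviation of Bmp6, Bmp4 and Bmpr1a from the group mean (vertical axis, log2) against that of the mean of 8 smooth muscle markers (horizontal axis, log2), with 1 point per mouse and colours for the 4 groups. Points of Bmp6 rise from lower left to upper right (r = 0.77), and those of Bmp4 and Bmpr1a scatter more widely.

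The genes most like each member were found by Pearson r over the 19 arrays after the mean of each sex was removed, among genes at or above the median level, with predicted genes (Gm and Rik names) left out. They include the PPE response itself and are given as a description. For Bmp6 they were Myocd (0.95), Lmcd1 (0.94) and Pip5k1b (0.94), which were called lower in both sexes. For Bmpr1a they were Itgbl1, Fermt2 and Dnal1 (each 0.96), and for Bmpr2 Plxdc2 (0.93), Hdlbp (0.93) and Tom1l1 (0.91). For Bmp4 they were Ces2g (0.91), Rbbp9 (0.88) and Dctn6 (0.88), and for Bmp2 Mta1 (0.95), Arhgef11 (0.94) and Plekhg2 (0.93). For Grem1 they were Akap8 (0.88), Plcxd2 (0.87) and Ddx41 (0.84). For Id1 they reached only 0.81 (Hmgxb3) and 0.80 (Cnnm4 and Vps9d1), for Id3 they were Scarf2 (0.95), Fzd2 (0.90) and Phc1 (0.90), and for Smad6 Fam3a (0.95), Pja1 (0.89) and Eva1b (0.89).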

How the data were processed

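RNA of 19 aortae (100 ng each) was hybridised to Affymetrix Clariom D arrays, 1 aorta per array, per the labels. The values analysed are log2 intensities deposited by the authors. The submitters' processing notes name the Transcriptome Analysis Console and the mm10 build; for background correction, summarisation and the software version, the sources used here state nothing. Of 65956 probe sets, 30604 had exactly 1 gene symbol, 2146 had several and 33206 were not listed. Symbols of 827 probe sets were updated through RefSeq, and the brightest probe set stood for a gene with several (30142 genes). A linear model with 1 mean per group was fitted with limma 3.58.1 (R 4.3.3, lmFit and eBayes), with Benjamini-Hochberg adjustment across all genes and a threshold of 0.05. It was tested on simulated data. The members and gene lists were chosen with earlier results of these data known. Named were all members, each pathway gene called in either sex, the first 2 genes of each pathway list and the 3 genes most like each member. No pair of arrays shared over 2.50% identical values.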

Additional observations from a re-analysis of the deposited data

Results flagged for a closer look

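Of 27 sets of values (9 genes in the 3 groups of 4 to 10 arrays), 1 held an array far from the others. Bmp4 in female PPE 4 was 11.55, against 10.35 to 10.49 in the other female PPE arrays. Chance alone marks about 1 set in 20. The same array had the highest smooth muscle marker mean of its group, 13.09, and the highest adipocyte marker mean, 10.94. Its fibroblast and endothelial means were also the highest of the group, and its leukocyte mean was the lowest. The part of these in the Bmp4 value was not tested.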

How the results depend on the processing

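The lower call of Bmp6 and of Bmpr1a in males held under each of the 10 alternatives and in all 19 fits without 1 array, whereas every other call of the 9 genes was lost under at least 1. The number of the 9 genes called in males was 6, and it was 3 after quantile normalization, after median centring and with only the male arrays in the fit. In females it was 1, and it became 2 with quantile normalization, 0 with median centring, 3 with array weights, 3 with only the female arrays, 2 under the 3-array omission, and 3 without male sham 4 and female PPE 4, the last chosen after seeing the data. Without 1 array it lay between 3 and 7 in males and between 0 and 2 in females. Bmp2 was not tested where dim genes were left out, and the difference between the sexes could not be fitted with the arrays of 1 sex.

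Over all genes, 1273 were called in females, and this became 3951 with array weights, 1970 with only the female arrays, 2454 under the 3-array omission, and from 368 to 1613 without 1 array. Of the 5923 calls in males 49.2% were higher, which was 57.5% with quantile normalization and 60.3% with median centring. In females 65.6% were higher, then 44.1% and 69.1%. The difference between the sexes was called for 163 genes, then for 274 with median centring, 931 with array weights, 79 under the 3-array omission, 49 without male sham 4 and female PPE 4, and from 0 to 426 without 1 array (0 without female sham 1 or 2).

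The labels do not say whether equal array numbers mark a shared litter or day. Deviations of arrays with the same number correlated between −0.32 and 0.24. This cannot decide the question, since arrays with unlike numbers were not set beside them. With the replicate number as a block, 3535 genes were called in males and 639 in females, 2 and 0 of the 9 genes (Bmp6 and Bmpr1a in males), and 0 for the difference between the sexes. The male-minus-female value of Bmp6 became 0.025. Of the other pathway genes, 7 were called lower in males with this block and 0 in females.

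Reversed signs were seen for values without a call, and the cause was not tested. For the male response minus the female response, Bmp6 was 0.10 with quantile normalization, 0.061 with array weights, 0.13 under the 3-array omission and 0.038 without male sham 4 and female PPE 4. Array weights gave −0.086 for Bmp4, −0.0032 for Bmpr2 and 0.067 for Grem1. The 3-array omission gave −0.12 for Bmp4, −0.083 for Bmpr2 and 0.044 for Id1, and leaving out male sham 4 and female PPE 4 gave −0.010 for Bmpr2. Without 1 array, this difference ran from −0.155 to 0.0675 for Bmp6, from −0.024 to 0.16 for Bmpr2 and from −0.41 to 0.051 for Grem1. The male change of Id1 ran from −0.074 to 0.20, and the female change from −0.12 to 0.055 for Bmp2, from −0.12 to 0.10 for Crim1 and from −0.20 to 0.065 for Id4.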

Other observations

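Grem1 was set against the same marker means as Bmp6, in relations chosen after the values were seen. Between mice of 1 group, Grem1 and the smooth muscle marker mean gave r = −0.35 (permutation p = 0.215, adjusted p = 0.573; rho = −0.22, p = 0.410, adjusted p = 0.656), with −0.38 in males, −0.18 in females and −0.17 without the 2 farthest arrays.

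With the adipocyte marker mean, Bmp4 gave r = −0.20 (permutation p = 0.633, adjusted p = 0.898; rho = −0.09, p = 0.768, adjusted p = 0.780), and without male sham 3 and 4 it gave 0.29. Within males r was −0.59 and within females 0.61. Bmpr1a gave r = −0.04 (permutation p = 0.898, adjusted p = 0.898; rho = 0.31, p = 0.223, adjusted p = 0.467), and without those arrays 0.50, with −0.32 in males and 0.97 in females. For Bmp6 r was 0.09 (permutation p = 0.838, adjusted p = 0.898; rho = 0.11, p = 0.686, adjusted p = 0.780), and for Grem1 r was −0.09 (permutation p = 0.833, adjusted p = 0.898; rho = 0.08, p = 0.780, adjusted p = 0.780). Without those arrays these were 0.11 and 0.07. In males and females Bmp6 gave −0.03 and 0.50, and Grem1 gave −0.05 and −0.30.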
